A study of Mus musculus with 4 samples.

Results

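Transcripts of 62 WNT genes were examined among the 22556 genes of an FPKM table of E16.5 mouse lungs. The members were chosen by name: every row whose symbol began with Wnt and a digit, Fzd, Sfrp, Dkk or Rspo, and the WNT receptors, feedback genes, transcription factors and modulators Lrp5, Lrp6, Lgr4, Lgr5, Lgr6, Ror1, Ror2, Axin1, Axin2, Ctnnb1, Lef1, Tcf7, Tcf7l1, Tcf7l2, Nkd1, Nkd2, Notum, Wif1, Znrf3 and Rnf43. By role they comprised 19 Wnt ligands, 10 Frizzled receptors, 4 co-receptors or ROR receptors, 9 genes of the R-spondin, LGR and E3 ligase branch, 10 secreted inhibitors and 9 genes of the β-catenin machinery and its feedback. The remaining member, Dkkl1, shares its name with the Dickkopf inhibitors and has no established WNT role.

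The comparison was between 2 Control and 2 Shh-Stk11 libraries. Control embryos carried Shh-Cre and 1 floxed with 1 intact allele of Stk11 (Shh-Cre; Stk11F/+), and Shh-Stk11 embryos carried Shh-Cre and 2 floxed alleles (Shh-Cre; Stk11F/F). Cre was thus present in both groups, and the Control embryos were heterozygous in recombined cells. Shh-Cre recombines in endoderm-derived epithelial cells of the lung, whereas the libraries held RNA of the whole organ, so that fewer cells of a type and less RNA per cell cannot be told apart. The labels named the strain C57BL/6 and gave neither sex nor litter, and the study's methods described mixed backgrounds.

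Wnt proteins are secreted lipid-modified ligands that bind Frizzled receptors. With the co-receptors LRP5 and LRP6, the canonical branch stabilizes β-catenin, which acts with TCF and LEF factors on target genes, among them the feedback inhibitors Axin2, Notum and Nkd1. Noncanonical branches act through ROR receptors, planar polarity proteins and regulators of the actin cytoskeleton. In the developing lung, mesenchymal Wnt2 and Wnt2b are required for lung specification, epithelial Wnt7b supports growth of the epithelium and mesenchyme, and Wnt5a takes part in distal lung morphogenesis.

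The deleted gene followed the labels. Stk11 was at 44.0 and 45.5 FPKM in the Control libraries and at 29.5 and 26.0 FPKM in the Shh-Stk11 libraries (log2 fold change -0.69, SE 0.125, adjusted p = 0.0499 in limma). That call was at the threshold and was lost without any 1 of the 4 libraries, with adjusted p between 0.113 and 0.183. The depth recovered from the steps of low values was 30.9 to 38.1 M reads per library. Among the epithelial markers of the lung, the transcription factor Nkx2-1 was at 170 and 178 FPKM in Control and 207 and 196 FPKM in Shh-Stk11 libraries. Sftpc, the most abundant of these markers, went the other way. It was at 17426 and 15784 FPKM in Control and 8005 and 12048 FPKM in Shh-Stk11 libraries, without overlap (adjusted p = 0.447 in limma). The lung mesenchyme factor Tcf21 was at 364 and 269 FPKM in Control and 198 and 243 FPKM in Shh-Stk11 libraries. The median log2 fold change was 0.21 over 10 lung epithelium markers (9 positive), -0.22 over 12 mesenchyme markers (all 12 negative), -0.31 over 7 endothelium markers (all 7 negative) and -0.57 over 7 red blood cell markers (all 7 negative), beside -0.05 over all genes tested. It was -0.33 over 6 mesothelium markers (4 negative), -0.86 over 5 heart muscle markers (all 5 negative) and -1.27 over 2 skeletal muscle markers, and -0.05 over 7 smooth muscle and 0.12 over 6 immune markers. The 2 skeletal muscle markers, Tnni1 (6.19 and 13.7 against 6.19 and 2.09 FPKM) and Ckm (5.04 and 12.2 against 5.63 and 1.97 FPKM), overlapped. Myog, Myh3 and Acta1 of the same list stayed at or under 0.387 FPKM and were not tested. The heart muscle markers summed to 102 and 224 FPKM in Control and 129 and 50 FPKM in Shh-Stk11 libraries, with overlap. The part of these markers in the WNT values was not tested.

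Upstream sequences are shown for Wnt3a, the ligand that fell, for its neighbour Wnt9a, whose values were also lower, and for Wnt11, the tested ligand with the highest log2 fold change. They were taken from RefSeq (GRCm38.p6), and only bases before the outermost annotated start of each gene are printed, from 5′ to 3′ on the strand of the gene. Capitals mark the TCF/LEF motif CTTTGAT, or its reverse complement ATCAAAG, wherever either occurred.
Wnt3a, chr11:59290752-59291001, minus strand: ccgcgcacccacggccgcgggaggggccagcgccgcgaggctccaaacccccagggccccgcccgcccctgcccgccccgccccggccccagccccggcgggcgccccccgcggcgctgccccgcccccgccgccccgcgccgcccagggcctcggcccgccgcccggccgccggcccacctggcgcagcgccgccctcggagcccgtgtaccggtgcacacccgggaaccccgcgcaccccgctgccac
Wnt9a, chr11:59306680-59306848, plus strand: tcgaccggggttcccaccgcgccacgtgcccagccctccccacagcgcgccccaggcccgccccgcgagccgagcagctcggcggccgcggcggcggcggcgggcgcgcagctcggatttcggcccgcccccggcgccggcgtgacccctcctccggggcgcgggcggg
Wnt11, chr7:98834862-98835083, plus strand, the upstream of its listed starts: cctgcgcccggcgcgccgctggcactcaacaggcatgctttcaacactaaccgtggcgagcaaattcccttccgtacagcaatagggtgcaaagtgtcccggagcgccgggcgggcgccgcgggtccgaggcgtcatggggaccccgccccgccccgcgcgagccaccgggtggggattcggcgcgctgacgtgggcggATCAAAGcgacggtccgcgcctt

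Wnt3a and Wnt9a lie next to each other on chromosome 11 and point away from each other, with 16098 bases between their outermost starts and 0 annotated genes starting between them. In the 250 bases before the listed start, the Wnt3a window held 87.6% G and C with 41 CpG dinucleotides, the Wnt9a window 84.4% with 48, and the window of the upstream Wnt11 start 70.8% with 37. The window of the other listed Wnt11 start held 56.8% with 16. Of the 250 bases scored, 169 are printed above for Wnt9a and 222 for the upstream Wnt11 start. The rest of these windows lies past the outermost annotated start of the gene. The medians over the 32851 windows of the RefSeq table were 52.4% and 6. No match to the motif on either strand was found in the Wnt3a and Wnt9a windows, and 1 match, 51 bases before the listed start, was found in the window of the upstream Wnt11 start, with none in that of the other start. Of all windows, 3.21% held the motif. Windows were listed for 42 members, of which Wnt11 and Wnt5b held a match.

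Of the 62 members, 45 reached a mean of 0.5 FPKM and were tested. After Benjamini-Hochberg adjustment over all 13770 genes tested by limma, 0 members rose and 2 fell in Shh-Stk11 lungs. These were the ligand Wnt3a and the secreted inhibitor Notum. They made up 4.44% of the members tested, beside 2.27% of all genes tested that passed in either direction and 1.29% that passed as lower. At an unadjusted p under 0.05 there were 13 members (28.9%), 4 higher and 9 lower, beside 15.2% of all genes. Over all genes tested, 1107 were higher and 988 lower at this p. The values of the genotypes did not overlap for 26 members (57.8%), 9 with both Shh-Stk11 libraries above and 17 with both below the Control libraries, beside 46.8% of all genes. The median log2 fold change of the 45 members was -0.08, with 16 positive and 29 negative, beside -0.05 over all genes. It was -0.03 without Control 1 and without Shh-Stk11 2, and -0.13 without Control 2. The 4 libraries cannot give a permutation p below 0.333 for any gene, so that each p rested on the variance that limma shared over genes.

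**Figure D1:**
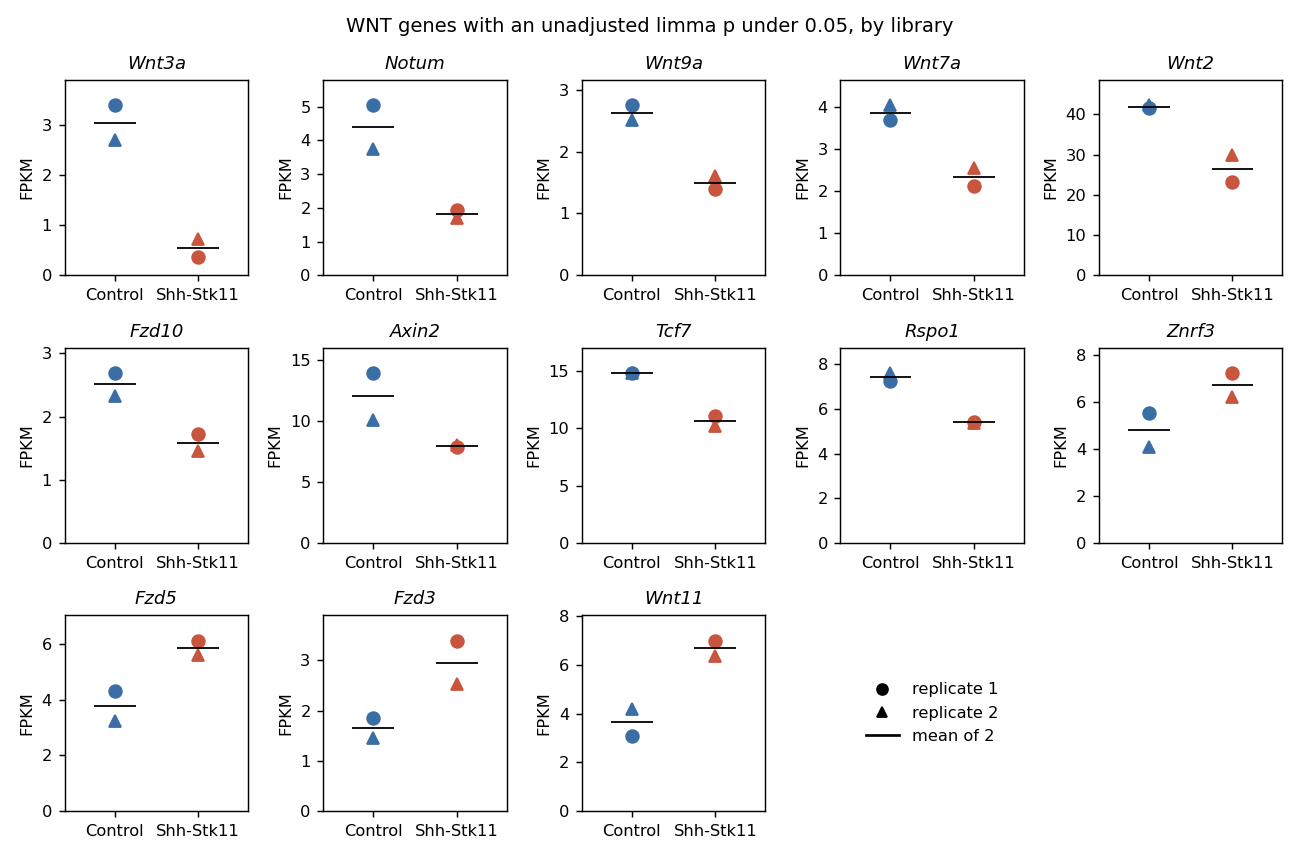
FPKM of each of the 13 WNT genes with an unadjusted limma p under 0.05 in each library, ordered from the lowest to the highest log2 fold change, with circles for replicate 1, triangles for replicate 2 and a line at the mean of 2. The values of the 2 genotypes did not overlap in any panel, and only Wnt3a and Notum passed the adjusted threshold in limma.

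Among the ligands, Wnt3a had the largest absolute log2 fold change of the 45 members tested. Wnt3a, a canonical ligand, was at 3.40 and 2.71 FPKM in the Control libraries and at 0.369 and 0.732 FPKM in the Shh-Stk11 libraries. Both Shh-Stk11 values lay far below both Control values, and their mean was 18.0% of the Control mean. The log2 fold change was -2.33 (SE 0.329, 95% interval -3.12 to -1.54, adjusted p = 0.0255). The values corresponded to an estimated 331 and 219 reads in Control and 29.1 and 62.2 reads in Shh-Stk11 libraries. Without Control 1 the adjusted p was 0.166 and without Control 2 it was 0.145, with log2 fold changes of -2.17 and -2.49.

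The most abundant ligand was Wnt2, which is made by the lung mesenchyme. It was at 41.5 and 42.3 FPKM in Control and at 23.2 and 29.8 FPKM in Shh-Stk11 libraries. The Shh-Stk11 mean was 63.3% of the Control mean, with no overlap, but the difference missed the adjusted threshold (log2 fold change -0.67, SE 0.152, adjusted p = 0.0869). The 12 mesenchyme markers summed to 2451 and 2241 FPKM in Control and 1791 and 1956 FPKM in Shh-Stk11 libraries, with none at 0 and 0 past the adjusted threshold. Their part in the Wnt2 values was not tested.

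Wnt7a and Wnt9a were also lower in both Shh-Stk11 libraries. Wnt7a was at 3.69 and 4.04 FPKM in Control and at 2.13 and 2.54 FPKM in Shh-Stk11 libraries (log2 fold change -0.71, SE 0.178, adjusted p = 0.111). Wnt9a, the neighbour of Wnt3a, was at 2.75 and 2.51 FPKM in Control and at 1.39 and 1.61 FPKM in Shh-Stk11 libraries (log2 fold change -0.77, SE 0.196, adjusted p = 0.116). Neither passed the adjusted threshold, and for both the Shh-Stk11 values were closer to each other than to either Control value.

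Wnt11, a ligand known for noncanonical signaling, went the other way. It was at 3.09 and 4.18 FPKM in Control and at 6.99 and 6.37 FPKM in Shh-Stk11 libraries. The mean was 1.84-fold that of Control, without overlap, and missed the adjusted threshold (log2 fold change 0.87, SE 0.186, adjusted p = 0.0754). Of the 10 ligands tested, it was the only one with both Shh-Stk11 libraries above both Control libraries.

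The noncanonical ligand Wnt5a, the next most abundant after Wnt2, was at 17.8 and 15.1 FPKM in Control and 17.6 and 16.3 FPKM in Shh-Stk11 libraries. These values overlapped, and the 95% interval of the log2 fold change ran from -0.28 to 0.37. The epithelial ligand Wnt7b was at 9.46 and 10.1 FPKM in Control and 8.90 and 5.67 FPKM in Shh-Stk11 libraries. Here the distance between the Shh-Stk11 libraries exceeded that between the nearest values of the genotypes, and the log2 fold change was -0.45 (interval -0.98 to 0.07, adjusted p = 0.404), with -0.77 without Shh-Stk11 1 and -0.13 without Shh-Stk11 2. Wnt5b (2.38 and 2.73 against 1.96 and 2.12 FPKM) and Wnt4 (0.783 and 0.909 against 0.609 and 0.773 FPKM) did not overlap either, with intervals that included 0. Wnt2b, between 0.692 and 0.803 FPKM, overlapped.

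Of the 10 ligands tested, 7 thus lay below Control in both Shh-Stk11 libraries and 1 above, beside 27.6% and 19.2% of all genes. The median log2 fold change of the ligands was -0.38. Summed over the 19 ligands, the FPKM were 86.0 and 85.6 in Control and 64.1 and 67.0 in Shh-Stk11 libraries. Most of this difference was in Wnt2: without it the sums were 44.5 and 43.3 in Control and 40.9 and 37.1 in Shh-Stk11 libraries. As a share of all ligand FPKM, Wnt2 made up 48.8% in Control and 40.4% in Shh-Stk11 lungs (means of 2), Wnt5a 19.2% and 25.9%, Wnt7b 11.4% and 11.2%, Wnt11 4.24% and 10.2%, and Wnt3a 3.56% and 0.835%. The ligands Wnt2, Wnt5a and Wnt7b together made up between 77.4% and 80% in every library.

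**Figure D2:**
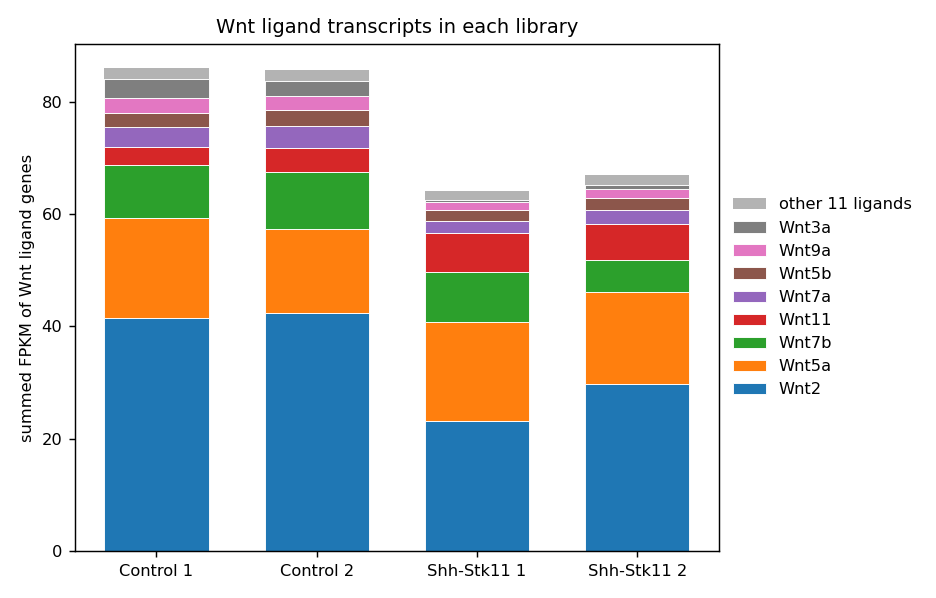
Stacked FPKM of the 19 Wnt ligand genes in each library, with the 8 highest shown by name and the other 11 summed in light grey. The sums were 86.0 and 85.6 FPKM in the Control libraries and 64.1 and 67.0 FPKM in the Shh-Stk11 libraries, with a smaller Wnt2 part and a larger Wnt11 part in the latter.

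The other 9 ligands were under the filter. Wnt1, Wnt8a and Wnt8b were listed at 0 in every library. Wnt10a was listed at 0 in 3 libraries, and Wnt9b stayed under 0.01 FPKM. Wnt10b, Wnt16, Wnt3 and Wnt6 stayed at or under 0.187 FPKM. Wnt16 corresponded to an estimated 8.4 and 2.1 reads in Control and 2.1 and 0 reads in Shh-Stk11 libraries, with overlap. Wnt1, Wnt8a, Wnt8b, Wnt9b and Wnt10a were at or under 3 estimated reads in every library, so that no difference was detectable at this depth.

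The Frizzled receptors, to which Wnt ligands bind, showed no common direction. For the 9 tested, the median log2 fold change was 0.02. The most abundant were Fzd2, Fzd1 and Fzd4. Fzd2 was at 28.1 and 32.1 FPKM in Control and 29.2 and 26.2 FPKM in Shh-Stk11 libraries. Fzd1 was at 25.1 and 25.2 against 26.2 and 21.4 FPKM, and Fzd4 was at 23.3 and 16.2 against 20.5 and 18.8 FPKM. All 3 overlapped, with intervals of the log2 fold change of -0.44 to 0.20, -0.42 to 0.25 and -0.43 to 0.47. Fzd6, Fzd7 and Fzd8, at means between 4.77 and 17.7 FPKM, also overlapped.

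Values without overlap were seen for 3 Frizzled genes, 33.3% of the 9 tested beside 46.8% of all genes, and none passed the adjusted threshold. Fzd5 was at 4.33 and 3.24 FPKM in Control and 6.12 and 5.61 FPKM in Shh-Stk11 libraries (log2 fold change 0.63, SE 0.184, adjusted p = 0.161). Fzd3, which is known for planar polarity and axon guidance, was at 1.86 and 1.45 against 3.39 and 2.52 FPKM (log2 fold change 0.80, SE 0.233, adjusted p = 0.164). Fzd10 was at 2.69 and 2.33 against 1.72 and 1.46 FPKM (log2 fold change -0.63, SE 0.203, adjusted p = 0.200). Fzd9 stayed between 0.0997 and 0.126 FPKM and was not tested.

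Of the co-receptors, Lrp5 was at 24.2 and 22.9 FPKM in Control and 25.9 and 19.0 FPKM in Shh-Stk11 libraries, with overlap. Lrp6 was at 14.8 and 12.4 against 20.3 and 15.6 FPKM. The Lrp6 values did not overlap, but the distance between the Shh-Stk11 libraries exceeded that between the nearest values of the genotypes (log2 fold change 0.39, interval -0.02 to 0.81, adjusted p = 0.357), and the value without Shh-Stk11 1 was 0.20. Ror2, a Wnt5a receptor, was at 7.10 and 6.28 against 7.02 and 5.75 FPKM, and its relative Ror1 was at 4.25 and 3.49 against 5.01 and 3.77 FPKM, both with overlap.

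R-spondins strengthen WNT signaling by binding LGR receptors and removing the E3 ligases RNF43 and ZNRF3, which otherwise clear Frizzled receptors from the membrane. Rspo1 was at 7.26 and 7.60 FPKM in Control and 5.43 and 5.37 FPKM in Shh-Stk11 libraries. Both pairs were tight and apart from each other, at 72.7% of the Control mean, without passing the adjusted threshold (log2 fold change -0.45, SE 0.132, adjusted p = 0.164). Znrf3 was at 5.55 and 4.08 against 7.24 and 6.24 FPKM, higher in both Shh-Stk11 libraries (log2 fold change 0.49, SE 0.190, adjusted p = 0.289). Its log2 fold change was 0.27 without Control 2. Rnf43 was at 5.62 and 6.23 against 5.66 and 5.06 FPKM and overlapped.

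Of the other genes of this branch, Rspo2 (1.99 and 1.74 against 2.08 and 2.07 FPKM) and the receptor Lgr4 (1.85 and 1.83 against 1.87 and 1.93 FPKM) did not overlap, with differences smaller than their error. Lgr6 was between 2.85 and 4.38 FPKM and Rspo4 between 1.64 and 2.50 FPKM, both with overlap. Rspo3, between 0.357 and 0.462 FPKM, was under the filter. The stem cell receptor Lgr5, itself a β-catenin target, was at 0.483 and 0.491 FPKM in Control and 0.338 and 0.180 FPKM in Shh-Stk11 libraries, and was under the filter. When the filter was lowered to 0.1 FPKM, its adjusted p was 0.355.

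Among the secreted inhibitors, Notum fell. NOTUM is a carboxylesterase that removes the lipid from Wnt proteins and is itself induced by β-catenin. It was at 5.04 and 3.75 FPKM in Control and at 1.95 and 1.71 FPKM in Shh-Stk11 libraries, 41.6% of the Control mean. Both Shh-Stk11 libraries were below both Control libraries by more than the libraries of either genotype differed (log2 fold change -1.21, SE 0.206, 95% interval -1.70 to -0.71, adjusted p = 0.0411). The adjusted p was 0.211 without Control 1, 0.143 without Control 2, 0.0978 without Shh-Stk11 1 and 0.129 without Shh-Stk11 2, so that the call needed all 4 libraries.

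The other 5 inhibitors tested also had negative log2 fold changes, from -0.25 to -0.08, none with an unadjusted p under 0.05. Dkk3, a divergent Dickkopf protein, was at 21.9 and 20.1 FPKM in Control and 15.6 and 19.8 FPKM in Shh-Stk11 libraries. Sfrp2, a secreted Frizzled-related protein that binds Wnt ligands, was at 9.12 and 9.75 against 9.42 and 8.31 FPKM. Wif1, which also binds Wnt ligands, was at 8.16 and 7.75 against 7.02 and 7.69 FPKM. The intervals of the log2 fold change were -0.62 to 0.12 for Dkk3, -0.42 to 0.23 for Sfrp2 and -0.43 to 0.21 for Wif1. Sfrp1 was between 3.71 and 4.17 FPKM and Dkk2 between 0.953 and 1.33 FPKM.

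The inhibitors under the filter were close to the limit of detection. Dkk1, an LRP5 and LRP6 antagonist and β-catenin target, was at 0.0258 and 0.171 FPKM in Control, an estimated 2.2 and 12.0 reads, and was listed at 0 in both Shh-Stk11 libraries. Control 1 was itself under 3 estimated reads, and no fold is given. Sfrp5 was at an estimated 1.0 read in each Control library, compared with 6.0 reads in Shh-Stk11 1 and 8.0 in Shh-Stk11 2. Its Shh-Stk11 mean was 2.50-fold a floor of 3 reads per Control library. The counting error of the Shh-Stk11 reads is not part of this ratio, which is therefore no lower bound. Sfrp4 stayed between 0.0408 and 0.0775 FPKM, and Dkk4 was listed at 0 in 3 libraries. Dkkl1 was at 0.264 and 0.409 FPKM in Control and 0.0466 and 0.130 FPKM in Shh-Stk11 libraries, with an adjusted p of 0.194 at the lower filter of 0.1 FPKM.

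Within the cell, Ctnnb1, which encodes β-catenin and also serves in cell junctions, was the most abundant member. It was at 429 and 412 FPKM in Control and 442 and 458 FPKM in Shh-Stk11 libraries, and the interval of its log2 fold change ran from -0.27 to 0.46. Its transcript level does not measure the amount of stabilized protein. Axin2, a destruction complex scaffold and one of the most widely used readouts of β-catenin activity, was at 13.9 and 10.1 FPKM in Control and at 7.83 and 8.02 FPKM in Shh-Stk11 libraries. Its Shh-Stk11 mean was 66.2% of the Control mean, without overlap, and the difference missed the adjusted threshold (log2 fold change -0.57, SE 0.177, adjusted p = 0.184). Its log2 fold change was -0.34 without Control 1 and -0.80 without Control 2. Tcf7, a transcription factor that partners with β-catenin, was at 14.8 FPKM in each Control library and at 11.1 and 10.2 FPKM in the Shh-Stk11 libraries (log2 fold change -0.48, SE 0.123, adjusted p = 0.120).

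Lef1 was lower in both Shh-Stk11 libraries, at 1.6 and 1.5 against 2.06 and 1.98 FPKM, with an interval that included 0 (-0.84 to 0.10). Nkd1, a feedback inhibitor at the level of Dishevelled, was at 36.6 and 29.3 FPKM in Control and 27.0 and 31.2 FPKM in Shh-Stk11 libraries, with overlap. Tcf7l1, often a repressor of β-catenin targets, was at 17.4 and 16.5 against 20.1 and 13.8 FPKM, with overlap. The remaining 3 of this class, Axin1 (13.8 to 15.1 FPKM), Tcf7l2 (4.20 to 5.23 FPKM) and Nkd2 (2.77 to 3.10 FPKM), had log2 fold changes between -0.07 and 0.10. Of the feedback genes, Notum passed the threshold, Axin2 was lower without passing it, and the values of Nkd1 overlapped. Their log2 fold changes were all negative, at -1.21, -0.57 and -0.17, and a difference between these genes was not tested.

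**Figure D3:**
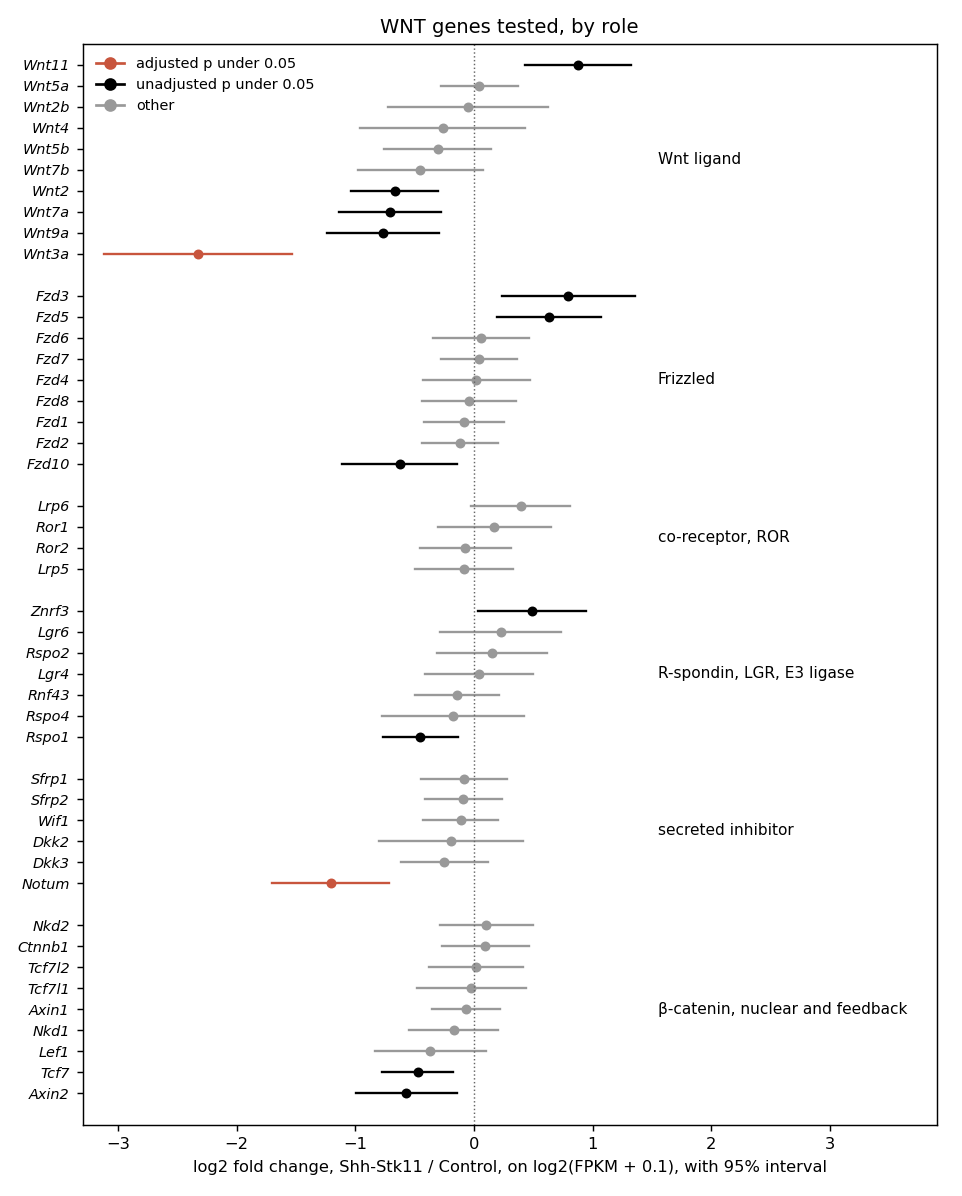
Log2 fold change of Shh-Stk11 against Control for the 45 WNT genes tested, grouped by role, on the log2(FPKM + 0.1) scale, where each point is a gene and each line its 95% interval. Wnt3a and Notum, in red, passed the adjusted threshold, the 11 in black passed only at an unadjusted p under 0.05, and those in grey did neither.

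Further genes of the pathway were taken from 6 lists that held 124 genes of the table, of which 105 were tested. Of these 105, 3 rose and 0 fell, beside 0.980% of all genes that passed as higher and 2.27% that passed in either direction. At an unadjusted p under 0.05 there were 18 of the 105, beside 15.2% of all genes. The count of 18 was close to that share. The median log2 fold change was -0.02. All 3 that rose belonged to the list of planar polarity and noncanonical genes, of which 24 were tested. Daam2, a formin that binds Dishevelled and assembles actin filaments, was at 15.2 and 17.0 FPKM in Control and at 45.1 and 40.7 FPKM in Shh-Stk11 libraries (log2 fold change 1.41, SE 0.128, adjusted p = 0.0055). Rock2, a serine/threonine kinase that acts on the actin cytoskeleton, was at 7.17 and 7.64 against 16.8 and 13.1 FPKM (log2 fold change 0.99, SE 0.157, adjusted p = 0.0354). Rock1 was at 5.35 and 4.69 against 11.1 and 8.71 FPKM (log2 fold change 0.96, SE 0.169, adjusted p = 0.0455). Rock1 and Rock2 act far beyond WNT signaling.

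Each of these calls was lost without some of the libraries. Without Control 1 or Control 2 the adjusted p of Daam2 was 0.058 and 0.0572. That of Rock2 was 0.192 and 0.166, and 0.140 without Shh-Stk11 1, and that of Rock1 was between 0.0704 and 0.220 without any 1 library. The log2 fold change of Daam2 stayed between 1.27 and 1.49 in all 15 alternative analyses.

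In the other 5 lists no gene passed the adjusted threshold. Among genes at a mean of at least 0.5 FPKM, the largest absolute log2 fold change among the cytoplasmic genes of the canonical pathway was that of Apc, a destruction complex scaffold, at 4.33 and 4.22 FPKM in Control and 8.59 and 6.98 FPKM in Shh-Stk11 libraries (0.84, SE 0.157, adjusted p = 0.0537). Among genes for ligand processing it was that of Tmed5 (0.60, adjusted p = 0.123), among nuclear co-factors that of Tle3 (0.48, adjusted p = 0.215, and 0.31 without Control 2) and among other extracellular modulators that of Lypd6 (0.69, adjusted p = 0.259). Of 18 often used β-catenin target genes tested, 3 were higher and 1 lower at an unadjusted p under 0.05, with a median log2 fold change of -0.04. Beside them, 15.2% of all 13770 genes tested reached this p in either direction, 1107 higher and 988 lower. The largest difference among them was in Msx1, at 0.702 and 0.889 FPKM in Control and 0.545 and 0.321 FPKM in Shh-Stk11 libraries (-0.78, adjusted p = 0.385, and -0.47 without Shh-Stk11 2).

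The fold changes of all genes varied with transcript length and with GC content. With the genes tested cut into 10 groups of equal size, the median log2 fold change went from -0.19 in the group of the shortest to 0.19 in that of the longest transcripts, and from 0.20 at the lowest to -0.16 at the highest GC content. The 4 members that were higher at an unadjusted p under 0.05 had longest transcripts of 3451 to 12734 bases, and the 9 that were lower had 1834 to 4260 bases. With the trend on length and GC content removed from each library, Wnt3a was at -2.17 (adjusted p = 0.0596), Notum at -1.03 (adjusted p = 0.111), Wnt2 at -0.52 (adjusted p = 0.140) and Wnt11 at 1.002 (adjusted p = 0.0892). Fzd3, with a transcript of 12734 bases, went from 0.80 to 0.33, Lrp6 from 0.39 to 0.16 and Rspo1 from -0.45 to -0.27. Tmed5 went from 0.60 to 0.19, and Porcn (-0.36) then had the largest absolute value among the genes for ligand processing. Daam2 remained past the threshold (1.27, adjusted p = 0.0371), whereas Rock2 (0.68, adjusted p = 0.102) and Rock1 (0.64, adjusted p = 0.121) lost their calls, as Wnt3a and Notum did. Apc, which had not passed, was at 0.52 (adjusted p = 0.155). The part of length and GC content in these differences was not tested beyond this.

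**Figure D4:**
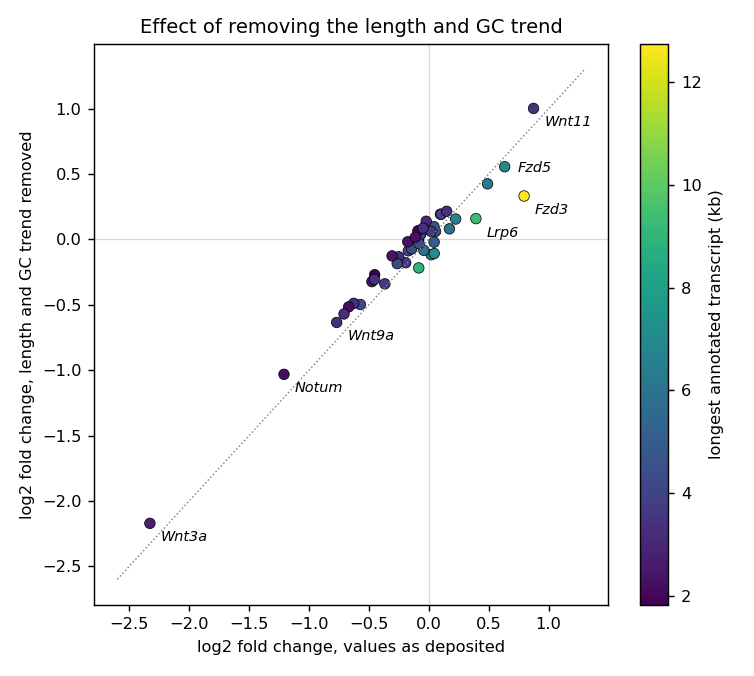
Log2 fold change of each of the 45 WNT genes tested before (x axis) and after (y axis) the trend on transcript length and GC content was removed from each library, colored by the length of the longest annotated transcript in kb, with a dotted line of equality. Genes with transcripts of up to 4532 bases lie above the line and those of 5060 bases or more below it, and Fzd3 is farthest from it.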

How the data were processed

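Total RNA of E16.5 whole lungs was sequenced by the authors as single-end reads, and they deposited 1 table of FPKM values, reads scaled to transcript length and to mapped reads. The submitters' processing notes list TopHat2 2.0.13 and Cufflinks 2.2.1 and name the builds GRCm38 and mm9 without a role. The annotation was not given in the sources used here. Genes whose 4 libraries averaged 0.5 FPKM or more were tested with limma 3.58.1 in R 4.3.3 (lmFit, then eBayes with a trend) on log2(FPKM + 0.1), a scale that understates the change of low genes, with genotype as the only term. Tests were two-sided with Benjamini-Hochberg adjustment over 13770 genes and a threshold of 0.05; residual and prior degrees of freedom were 2 and 4.48. Intervals are 95% intervals of the moderated statistic. The study's methods state independent biological replicates, without naming litters.

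Read numbers were estimated from the steps of low values (77.3% of 1721 low genes were whole multiples, within 0.04 of a whole number, up to 10 steps), with lengths of the longest GENCODE M21 transcript less 210 bases. They cover counting error only. Symbols were matched directly for 20242 genes and by synonym for 1918, and 396 were not matched. Values in every library are given for members past either threshold and for the 3 most abundant of each role. Of other pathway genes, those past the adjusted threshold and the largest difference of each list are named. Porcn and the cell type markers given by name, among them Nkx2-1 and Tcf21, were named after their values were seen. The members and lists were chosen with earlier results of these data known. Trabd2b and Draxin, listed as modulators, had no row. Alternatives were other pseudocounts and filters, quantile and median-ratio scaling, removal of the length and GC trend, eBayes without trend or robust, a replicate block, and each library left out. A crossed replicate block, chosen after seeing the data, was also counted among them. The fit was also run on simulated data with normal noise and without a trend on length or GC content. No result of that run is used here.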

Additional observations from a re-analysis of the deposited data

How the results depend on the processing

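In 15 alternatives for each of 36 WNT and pathway genes, 479 of 540 values kept their direction and their side of the adjusted threshold, 37 lost the threshold, 6 gained it and 18 changed sign. Wnt3a passed in 10 alternatives and Notum in 6. The 15 include the crossed pairing described below, chosen after seeing the data, in which Notum passed (adjusted p = 0.0222 in limma). With 2 libraries per genotype, n limits the precision of every value; causes of the shifts below were not tested. Of the members, 2 were lower in the reported analysis; this was 0 without a filter (adjusted p 0.103 for Wnt3a and 0.134 for Notum) and after removal of length and GC trends, 1 under quantile and under median-ratio scaling, and 0 to 1 with each library left out. Robust eBayes called 1 member higher (Wnt11) and 3 lower. Of other pathway genes, 3 were called in the report, 1 without a filter, under quantile normalization, with length and GC removed or without the eBayes trend, 5 with robust eBayes and 0 to 2 with each library left out. Over all genes, calls went from 313 to 61 without a filter, 186 with length and GC removed, 587 with robust eBayes and 38 to 191 with each library left out. The Stk11 log2 fold change missed the threshold at -0.675 (pseudocount 1), -0.692 (filter 0.1 FPKM, no filter, no eBayes trend), -0.624 (quantile), -0.652 (median ratio), -0.559 (length and GC) and -0.783 to -0.601 with each library left out. The log2 ratio of summed ligand FPKM, -0.389, was -0.349 under median-ratio scaling and -0.421 to -0.358 with a library left out. Signs changed for genes close to 0: with length and GC removed, Fzd4 was at -0.117, Ror2 at 0.036, Sfrp2 at 0.066, Tcf7l1 at 0.139, Wif1 at 0.017 and Wnt5a at -0.108; Tcf7l1 was at 0.003 under quantile and 0.018 under median-ratio scaling; with a library left out, Fzd1 ranged from -0.231 to 0.060, Fzd4 from -0.242 to 0.281, Lrp5 from -0.308 to 0.140, Ror2 from -0.214 to 0.070, Tcf7l1 from -0.295 to 0.250 and Wnt5a from -0.072 to 0.163.

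Samples of the same replicate number did not deviate together (correlation of deviations -0.114), so the numbers were not taken to pair the libraries. With the replicate number as a replicate block, 0 members, 0 other pathway genes and 13 of all genes were called, and Stk11 was at -0.692 (adjusted p = 0.154). In the crossed pairing, chosen after seeing the data, 675 genes were called, with 1 member higher and 2 lower.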
